A study of Mus musculus with 7 samples.

Results

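The cytosolic tRNAs that carry glutamate and glutamine were followed across 3 mouse glial cell types. They were taken by name from the tRNA tables and comprised 4 of 52 anticodon pools: Glu-UUC, Glu-CUC, Gln-UUG and Gln-CUG, which the tables write with T for U as Glu-TTC, Glu-CTC, Gln-TTG and Gln-CTG. At the finer level they comprised 16 of 217 isodecoders, tRNAs with the same anticodon but a different body sequence, of which 6 were for glutamate and 10 for glutamine. The names of these isodecoders joined 35 of 381 tRNA genes, 19 for glutamate and 16 for glutamine. Of the 16 isodecoders, 15 reached a mean of 1 RPM or more over all libraries, and Gln-UUG-4 was under it. RPM is the read count after each library was brought to one fixed total of tRNA reads.

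Levels came from QuantM-seq, which ligates a hybrid adapter to the ends of mature tRNAs ahead of reverse transcription. There were 3 libraries from oligodendrocyte progenitor cells (OPCs), 2 from oligodendrocytes (OLs) and 2 from astrocytes (Astro). All cells were of the 129S/SvEv strain and went back to epiblast stem cells, pluripotent cells taken from male embryos at embryonic day 3.5. OPCs were untreated and grown with bFGF and PDGFA. OLs were made from OPCs in a medium with thyroid hormone (T3), noggin, IGF-1, cyclic AMP and NT3, and astrocytes from OPCs in a medium with BMP4 and other growth factors, each for 3 days. The OL cultures were derived from some of the OPC cultures that were also sequenced, but the labels do not say which, so the fits take the libraries as separate samples. These are cultures of stem cell origin and not cells isolated from brain, and by the study's own staining the OL cultures still held cells that had not matured. Only tRNAs were measured, so the labelled cell types could not be checked against marker mRNAs. In such bulk samples fewer cells of a type and less RNA per cell cannot be told apart.

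Glutamate and glutamine each have a pair of codons that differ in the last base, A or G. A tRNA with U at position 34, the first base of the anticodon, reads the codon ending in A: Glu-UUC reads GAA and Gln-UUG reads CAA. A tRNA with C at that position reads the codon ending in G: Glu-CUC reads GAG and Gln-CUG reads CAG. The split is not strict, since the study gives GAG as well as GAA as decoded by Glu-UUC. In Glu-UUC and Gln-UUG, as in Lys-UUU and Arg-UCU, the U34 is known in mammals to be modified to mcm5s2U. This takes the Elongator complex and a thiolation pathway, and the modified base pairs efficiently with A. On the study's gels the ratio of thiolated to unthiolated tRNA was lower in OLs than in OPCs for Glu-UUC, Gln-UUG and Lys-UUU. Arg-UCU showed no shift on them in any cell type. The RPM tables hold reads and do not measure the modification, so the balance described here is that of reads from the U34 and C34 tRNAs. By the study, modified bases can lower the fidelity of reverse transcription or end it early. Whether this changed the reads of these tRNAs was not tested.

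Between 1339021 and 2627351 reads per library were assigned to tRNAs, and between 171674 and 345460 of them were from glutamate and glutamine tRNAs. The latter made up 13.6 to 14.5% of the cytosolic RPM in every library. Reads outside the cytosolic tRNAs took 3.55 to 7.88% of the total and were lowest in the OL libraries, which raises cytosolic RPM there. Replicate libraries of a group differed by more than counting error: over the glutamate and glutamine isodecoders their chi-square divided by its degrees of freedom was 5.40 to 185. The highest value was that of the 2 Astro libraries. A count of 0 allowed up to 1.14 to 2.24 RPM, depending on the library, counting error only.

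Gln-CUG and Glu-CUC were the most abundant of the 4 anticodon pools, Glu-UUC was somewhat lower and Gln-UUG was scarce. The plot of the 4 pools by library shows these levels. Gln-CUG (Gln-CTG in the tables), the reader of CAG, stood at 50711, 52777 and 50255 RPM in OPCs, at 51433 and 52719 RPM in OLs and at 50368 and 45244 RPM in astrocytes. It ranked 5th of the 52 anticodons by mean level, and its Astro library 2 was the lowest of the 7. Glu-CUC (Glu-CTC), the reader of GAG, stood at 44078, 47499 and 45521 RPM in OPCs, at 48219 and 46496 RPM in OLs and at 43059.7 and 51541 RPM in astrocytes. It ranked 6th, and the 2 Astro libraries held its lowest and its highest value, so that the OPC and OL values lay between them.

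Glu-UUC (Glu-TTC), the reader of GAA, stood at 32203, 33363 and 32836 RPM in OPCs, at 30566 and 32050.3 RPM in OLs and at 31315 and 33691 RPM in astrocytes. Both OL values were below all 3 OPC values, and the Astro values lay on either side of the OPC values. Gln-UUG (Gln-TTG), the reader of CAA, stood at 1216, 1184 and 1715 RPM in OPCs, at 1347 and 1236 RPM in OLs and at 1166 and 1009 RPM in astrocytes. OPC library 3 stood above the other 6 libraries, and both Astro values were below all OPC and OL values.

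**Figure D1:**
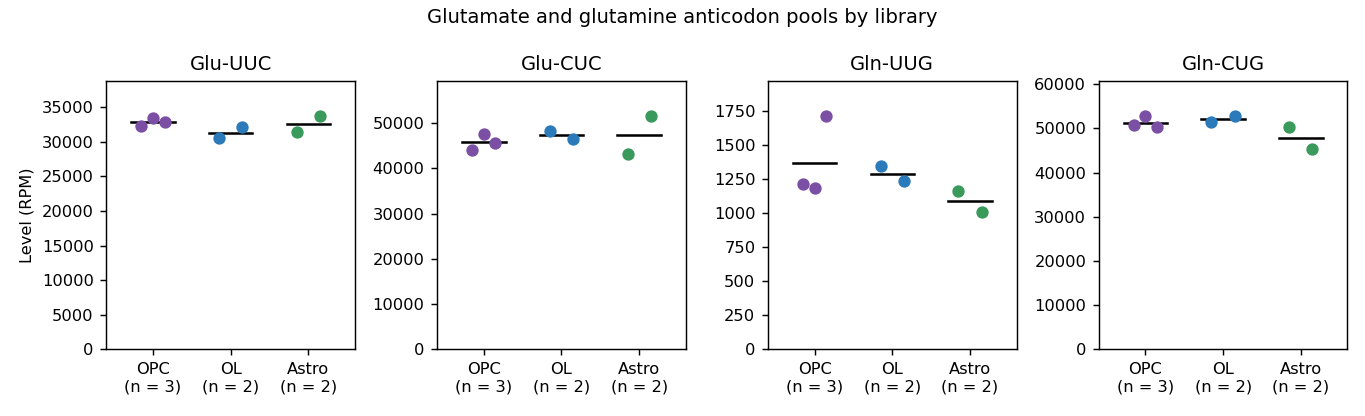
Level in RPM (vertical axis, from 0, its own scale in each panel) of the 4 anticodon pools in each library; points are libraries and black lines group means. Gln-UUG lay between 1009 and 1715 RPM and the other 3 pools between 30566 and 52777 RPM.

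The mean of Gln-CUG was 1.08 times that of Glu-CUC, and their ranges over the 7 libraries overlapped, with Gln-CUG higher in 6 of 7. Glu-CUC was 1.44 times Glu-UUC and higher in 7 of 7 libraries without overlap. Glu-UUC was 25.5 times Gln-UUG, again without overlap. The tRNA genes of RefSeq for these anticodons were all 72 bases long, so length does not enter these ratios.

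Glu-UUC and Gln-CUG were among the steadiest anticodons between replicates. The pooled SD within groups of log2(RPM + 1) was 0.048 for Glu-UUC, the 3rd lowest of 50 anticodons with a mean of at least 1 RPM, and 0.062 for Gln-CUG, the 6th lowest. Glu-CUC had 0.101 and ranked 18th, near the median of 0.128. Gln-UUG had 0.227 and ranked 44th.

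The balance of U34 to C34 tRNA was unlike for the 2 amino acids. The ratio of Glu-UUC to Glu-CUC was 0.731, 0.702 and 0.721 in OPCs, 0.634 and 0.689 in OLs and 0.727 and 0.654 in astrocytes. Glu-UUC thus made up 41.8% ± 0.488 of glutamate tRNA in OPCs (SD, n = 3). The same share was 39.8% ± 1.42 in OLs (SD, n = 2), and astrocytes had 40.8% ± 1.82 (SD, n = 2). Both OL ratios were below all OPC ratios, whereas Astro library 1 lay within the OPC range and Astro library 2 below it.

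The ratio of Gln-UUG to Gln-CUG was 0.0240, 0.0224 and 0.0341 in OPCs, 0.0262 and 0.0234 in OLs and 0.0232 and 0.0223 in astrocytes. Gln-UUG was 2.61% ± 0.601 of glutamine tRNA in OPCs (SD, n = 3). It was 2.42% ± 0.184 in OLs (SD, n = 2), and astrocytes had 2.22% ± 0.0573 (SD, n = 2). For each read of Gln-UUG there were 38.5 of Gln-CUG in OPCs, 40.4 in OLs and 44.0 in astrocytes. The OPC mean rests in part on library 3, whose ratio was the highest of all.

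Among the 5 U34 and C34 pairs of split codon boxes, glutamate and glutamine were the pairs with more C34 than U34 tRNA in all 7 libraries. Lys-UUU exceeded Lys-CUU, Leu-UAA exceeded Leu-CAA and Arg-UCU exceeded Arg-CCU in each library, with the Arg ratio between 1.04 and 1.47. The plot of U34 shares shows the 5 pairs side by side.

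**Figure D2:**
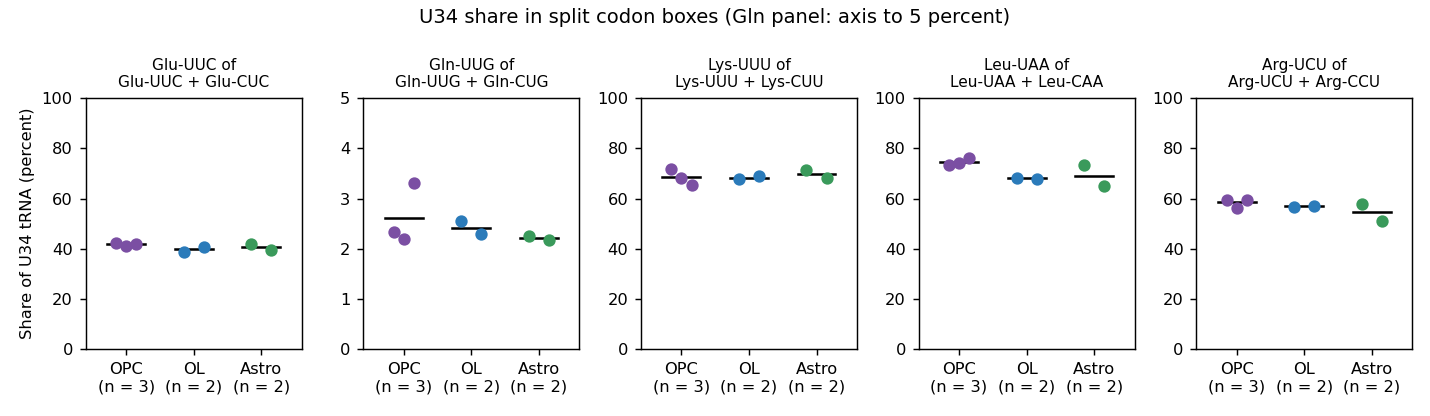
Share of the U34 tRNA in the sum of the U34 and the C34 tRNA, in percent, for 5 pairs; points are libraries, black lines are group means, and the Gln axis ends at 5% where the others end at 100%. Glu-UUC lay between 38.8 and 42.2% and Gln-UUG between 2.18 and 3.30%.

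The question put to the 4 pools was whether their level differed between OPCs and the cells made from them. In OLs against OPCs, 0 of the 4 pools passed the threshold (limma, adjusted p under 0.01), as did 0% of all 52 anticodons. With an unadjusted p under 0.05 there were also 0, against 25% of all. The study's own DESeq2 test called Leu-UAA, Phe-GAA and SeC-UCA here, at an adjusted p under 0.01. Glu-UUC was lower in OLs by 0.07 on the log2 scale (SE 0.0358, 95% interval -0.16 to 0.03, limma adjusted p = 0.244). It was the member of the 4 whose OL and OPC libraries did not overlap, against 48.1% of all anticodons without overlap. The difference was 0.02 for Gln-CUG (interval -0.08 to 0.13, adjusted p = 0.652 by limma), and it was -0.02 or -0.07 under the other scalings. For Glu-CUC it was 0.05 (interval -0.07 to 0.18, adjusted p = 0.422 by limma), and -0.04 under median-of-ratios scaling. For Gln-UUG it was -0.07 (interval -0.64 to 0.51, adjusted p = 0.832 by limma), and 0.10 without OPC library 3. The median of all anticodons was 0.12 in this comparison and 0.02 under median-of-ratios scaling. Relative to that median Glu-UUC and Gln-UUG were each at -0.18, Gln-CUG at -0.09 and Glu-CUC at -0.07.

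Astrocytes were next compared with OPCs. Of the 4 pools, 0 passed (limma, adjusted p under 0.01), as did 0% of all anticodons. With an unadjusted p under 0.05 there were also 0, against 11.5%. Gln-UUG was lower in astrocytes by 0.32 (SE 0.225, 95% interval -0.91 to 0.28, limma adjusted p = 0.489), and by 0.15 without OPC library 3, its highest. It was the 1 pool of the 4 without overlap, against 32.7% of all anticodons, and its difference was at percentile 94.2 of the absolute differences of all anticodons. Gln-CUG differed by -0.10 (interval -0.28 to 0.08, adjusted p = 0.489 by limma). Glu-CUC differed by 0.04 (interval -0.21 to 0.30) and was at -0.09 without Astro library 2. Glu-UUC differed by -0.01 (interval -0.16 to 0.13), 0.01 when rescaled to the listed tRNAs.

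In OLs against astrocytes, 0 of the 4 passed (limma, adjusted p under 0.01), as did 0% of all anticodons. With an unadjusted p under 0.05 there were also 0, against 15.4%. Gln-UUG was higher in OLs by 0.25 (interval -0.30 to 0.80, limma adjusted p = 0.519) and Gln-CUG by 0.13 (interval -0.04 to 0.29, limma adjusted p = 0.327). Both had libraries that did not overlap, as had 57.7% of all anticodons. The median of all anticodons was 0.11, relative to which Gln-UUG was at 0.14 and Gln-CUG at 0.02. Glu-UUC differed by -0.05 (interval -0.19 to 0.08) and Glu-CUC by 0.01 (interval -0.23 to 0.25), the latter -0.06 or -0.10 under the other scalings. The 3 comparisons share libraries and are not independent. A p over the threshold does not show that the pools were alike, and the intervals of Gln-UUG are wide.

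The balance within an amino acid was tested on the share of each anticodon in the tRNA of its amino acid, for 39 such shares. In OLs against OPCs the Glu-UUC share was lower by 0.07 on the log2 scale (SE 0.0383, 95% interval -0.17 to 0.03, limma adjusted p = 0.246) and the Glu-CUC share higher by 0.05 (interval -0.04 to 0.14, limma adjusted p = 0.403). Both had libraries without overlap, as had 46.2% of all shares. The Gln-UUG share differed by -0.09 (interval -0.59 to 0.42), and by 0.09 without OPC library 3. Between astrocytes and OPCs the Gln-UUG share differed by -0.21 (interval -0.71 to 0.30, adjusted p = 0.737 by limma), or -0.03 without OPC library 3, and the Glu-UUC share by -0.03 (interval -0.15 to 0.08). In OLs against astrocytes the Gln-UUG share differed by 0.12 (interval -0.37 to 0.62) and the Glu-UUC share by -0.04 (interval -0.15 to 0.08). Libraries did not overlap there for Gln-UUG and for Gln-CUG, 2 of the 4, against 53.8% of all shares. In each of the 3 comparisons 0 of these 4 shares passed (limma, adjusted p under 0.01), as did 0% of all shares. With an unadjusted p under 0.05 there were 0 of the 4, against 30.8% of all in OLs against OPCs and 15.4% in each of the other comparisons.

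The sums over each amino acid were compared between the groups as well. Glutamate tRNA came to 78500.3 ± 2294 RPM in OPCs (SD, n = 3), to 78666 ± 169 RPM in OLs (SD, n = 2) and, in astrocytes, to 79804 ± 7677 RPM (SD, n = 2). Glutamine tRNA came to 52619.6 ± 1162 RPM, 53368 ± 831 RPM and 48894 ± 3734 RPM in the same order. Of the 2 sums, 0 passed in any comparison (limma, adjusted p under 0.01), against 4.35% of 23 amino acid sums in OLs against OPCs and 0% in the others. With an unadjusted p under 0.05 there were also 0, against 39.1% in OLs against OPCs, 26.1% in astrocytes against OPCs and 17.4% in OLs against astrocytes. Glutamate differed by 0.00 in OLs against OPCs (interval -0.13 to 0.13, and -0.03 or -0.09 under the other scalings). Glutamine was lower by 0.11 in astrocytes than in OPCs (interval -0.32 to 0.11, limma adjusted p = 0.499). Both Astro values were below all OPC values there, as libraries did not overlap for 34.8% of all sums. Glutamine was higher by 0.13 in OLs than in astrocytes (interval -0.06 to 0.32, limma adjusted p = 0.312), where the median of all sums was 0.12. Libraries did not overlap for it there, as for 69.6% of all sums.

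Lys-UUU and Arg-UCU, the other tRNAs that the study lists with mcm5s2U34, were set beside Glu-UUC and Gln-UUG. In OLs against OPCs, 0 of the 4 tRNAs of that list passed (limma, 0.01), and 3 of 4 had a difference under 0: Lys-UUU -0.11, Glu-UUC -0.07, Gln-UUG -0.07 and Arg-UCU 0.04, with Arg-UCU at -0.06 under median-of-ratios scaling and Gln-UUG at 0.10 without OPC library 3. All 4 were under the median of 0.12 over all anticodons. Between astrocytes and OPCs 0 of the 4 passed, and the differences were 0.09 for Lys-UUU (-0.03 without Astro library 1) and -0.07 for Arg-UCU beside -0.01 for Glu-UUC and -0.32 for Gln-UUG. Among the U34 tRNAs of the 5 split boxes, Leu-UAA was lowest in OLs against OPCs, at -0.21 (limma adjusted p = 0.0428, and 0.0493 to 0.360 when each library was left out in turn).

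Each pool was made of a few dominant isodecoders, and the 2 C34 pools were each nearly a single one. Gln-CUG-2, whose name joins 4 identical genes, held 99.3% of the Gln-CUG pool. It stood at 50341, 52463 and 49788 RPM in OPCs, at 51135 and 52407 RPM in OLs and at 50056 and 44984 RPM in astrocytes. Glu-CUC-1, which joins 9 genes, held 99.9% of its pool, with 44054, 47472 and 45494 RPM in OPCs, 48196 and 46466 RPM in OLs and 43029 and 51517 RPM in astrocytes. Both follow their pools in every library.

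The Glu-UUC pool was split between isodecoders. Glu-UUC-1, which joins 4 genes, held 61.5% of it, Glu-UUC-2, which joins 2, held 37.7%, and Glu-UUC-3, which also joins 2, held 0.842%. Glu-UUC-1 stood at 19342, 19595 and 19674 RPM in OPCs, at 20605 and 21115 RPM in OLs and at 18889.7 and 19744 RPM in astrocytes. Both OL libraries were above all other libraries. Its pooled SD between replicates, 0.027 on the log2 scale, was the lowest of 192 isodecoders.

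Glu-UUC-2 stood at 12552, 13418 and 12705 RPM in OPCs, at 9782 and 10705 RPM in OLs and at 12248 and 13748 RPM in astrocytes. The OL libraries lay under all 5 others, and the OPC and Astro values overlapped. Glu-UUC-3 stood at 309.9, 350.4 and 457 RPM in OPCs, at 179 and 231 RPM in OLs and at 178 and 198 RPM in astrocytes. All 3 OPC values were above all values of the other cell types, and OPC library 3 was the highest.

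The Gln-UUG pool had 3 sizeable isodecoders. Gln-UUG-3, which joins 2 genes, held 55.1% of it and stood at 689, 658 and 963 RPM in OPCs, at 791 and 662 RPM in OLs and at 595 and 529 RPM in astrocytes. Gln-UUG-1, of 1 gene, held 33.4% and stood at 411, 429.9 and 555 RPM in OPCs, at 449.6 and 400.0 RPM in OLs and at 367 and 352 RPM in astrocytes. In both of them the Astro values were the lowest of the 7 and OPC library 3 the highest. Gln-UUG-2, of 1 gene, held 11.2% and stood at 116, 91.4 and 194 RPM in OPCs, at 103 and 163 RPM in OLs and at 198 and 125 RPM in astrocytes, with all 3 groups overlapping.

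The other isodecoders were minor. Gln-CUG-5 stood at 162, 129 and 199 RPM in OPCs, at 126 and 125 RPM in OLs and at 128 and 101 RPM in astrocytes, so that its OPC values were the highest. Gln-CUG-3 ranged from 146 to 243 RPM over the 7 libraries and Glu-CUC-2 from 20.1 to 26.0 RPM. Gln-CUG-4 stood at 8.21, 8.61 and 14.4 RPM in OPCs, at 11.9 and 11.8 RPM in OLs and at 10.2 and 9.13 RPM in astrocytes. Gln-CUG-1 stood at 7.47, 3.97 and 9.87 RPM in OPCs, at 7.55 and 8.10 RPM in OLs and at 6.82 and 3.81 RPM in astrocytes. These last 2 and the next 3 rest on few reads.

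Glu-CUC-5 ranged from 2.24 to 5.75 RPM. Gln-UUG-5 had 0, 6 and 10 reads in OPCs, 5 and 17 in OLs and 15 and 8 in astrocytes, or 0 to 10.6 RPM. Its 0 in OPC library 1 allows up to 2.24 RPM. Gln-UUG-4 had 1 read in OPC library 2, 1 in Astro library 1 and 0 in the other 5 libraries. Reads that could come from closely related isodecoders were subject to a minimum mapping quality of 10. How many were lost or assigned to another isodecoder is not known from these tables. This makes the minor isodecoders uncertain, and the split of a pool between its larger isodecoders has the same limit.

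Ordered by level, Gln-CUG-2 and Glu-CUC-1 had overlapping ranges. Glu-UUC-1 was 1.63 times Glu-UUC-2 and Glu-UUC-2 17.4 times Gln-UUG-3, both without overlap. From Gln-UUG-3 to Gln-CUG-5 each isodecoder overlapped its neighbour in the order over the 7 libraries. Glu-CUC-2 was apart from those above and below it, by 6.17 times from Gln-CUG-5 and by 2.11 times from Gln-CUG-4.

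In OLs against OPCs, 0 of the 15 isodecoders passed the threshold (limma, adjusted p under 0.01), against 5.73% of all 192. An adjusted p under 0.05 was reached by 2 of 15, against 18.2%, and an unadjusted one by 2, against 32.8%. Both belong to the Glu-UUC pool. Glu-UUC-2 was lower in OLs by 0.33 on the log2 scale (SE 0.0767, 95% interval -0.51 to -0.15, limma adjusted p = 0.0235). Over the alternatives without a replicate term its adjusted p ran from 0.00983, without OPC library 3, to 0.228, without OL library 1, and it was also over 0.05 without OPC library 1, OPC library 2 or OL library 2 and without a variance trend. Glu-UUC-3 was lower by 0.85 (SE 0.213, interval -1.35 to -0.35, limma adjusted p = 0.0318). Its adjusted p ran from 0.00441, under median-of-ratios scaling, to 0.228, without OL library 1, and was also over 0.05 without OPC library 2 or OL library 2, without a variance trend and without the filter on low means. Relative to the median of all isodecoders, 0.09, they were at -0.42 and -0.94. The study's own DESeq2 test, at an adjusted p under 0.01, called many isodecoders as changed between OPCs and OLs. Whether glutamate or glutamine isodecoders were among them was not checked here.

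Glu-UUC-1 was higher in OLs by 0.09 (interval -0.05 to 0.24, limma adjusted p = 0.312), which was 0.01 above that median. Libraries did not overlap for 5 of the 15 isodecoders, among them Glu-UUC-1, Glu-UUC-2 and Glu-UUC-3, against 53.1% of all isodecoders. The others of these 5 were Gln-CUG-5, lower by 0.36 (interval -0.87 to 0.15), and Gln-CUG-3, lower by 0.33 (interval -0.79 to 0.13). The largest difference upward was that of Gln-UUG-5, 1.24 with an interval from -0.64 to 3.11. It was 0.46 without OPC library 1, where it had no read, 1.98 without OL library 1, and 0.39 or 2.30 with a pseudocount of 10 or 0.1. Gln-CUG-4 followed with 0.22 (interval -0.55 to 0.98), which was 0.08 to 0.45 when each library was left out in turn. The median over the 15 was 0.03.

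Astrocytes against OPCs gave 0 of the 15 past the threshold (limma, adjusted p under 0.01), against 0% of all 192. An adjusted p under 0.05 was reached by 1 of 15, against 7.29%, and an unadjusted one by 1, against 20.8%. That one was Glu-UUC-3, lower in astrocytes by 0.96 (SE 0.211, 95% interval -1.45 to -0.48, limma adjusted p = 0.0259). Its adjusted p ran from 0.000675, under median-of-ratios scaling, to 0.167, without Astro library 1. It passed 0.01 without OPC library 3 (adjusted p = 0.00463 by limma) and was over 0.05 without OPC library 2, without Astro library 2, without a variance trend and without the filter on low means. Glu-UUC-2, in contrast to its values in OLs, differed by 0.01 (interval -0.23 to 0.25), and Glu-UUC-1 by -0.02 (interval -0.23 to 0.19, and 0.01 or 0.02 under the other scalings).

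Libraries did not overlap for 5 of the 15, all lower in astrocytes, against 39.6% of all isodecoders, or 22.9% counting only those lower. Beside Glu-UUC-3 these were Gln-CUG-5 at -0.50 (interval -1.05 to 0.06, limma adjusted p = 0.288), Gln-UUG-3 at -0.43 (interval -0.89 to 0.02, limma adjusted p = 0.249), Gln-CUG-3 at -0.36 (interval -0.85 to 0.13) and Gln-UUG-1 at -0.36 (interval -0.79 to 0.07). Gln-UUG-2, in the same pool as Gln-UUG-3 and Gln-UUG-1, differed by 0.31 (interval -0.47 to 1.09). It came to -0.02 without Astro library 1. Gln-UUG-5 differed by 0.90 (interval -0.74 to 2.53), and by 0.12 without OPC library 1. The median over the 15 was -0.06, against 0.01 over all isodecoders.

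In OLs against astrocytes, 0 of the 15 passed (limma, adjusted p under 0.01), against 6.25% of all 192. An adjusted p under 0.05 was reached by 0, against 9.38%, and an unadjusted one by 1, against 27.1%. This was Glu-UUC-2, lower in OLs by 0.34 (SE 0.105, 95% interval -0.57 to -0.11, limma adjusted p = 0.0617). The plot of isodecoder differences shows it as the member whose interval lies apart from 0 here. Libraries did not overlap for 7 of the 15, of which 6 were higher in OLs, against 60.4% of all isodecoders, or 40.6% counting only those higher. Gln-UUG-3 was higher in OLs by 0.37 (interval -0.09 to 0.82) and Gln-CUG-1 by 0.52 (interval -0.44 to 1.49), the latter 0.17 to 0.88 when each library was left out in turn. Gln-UUG-2 differed by -0.28 (interval -1.10 to 0.55) and Glu-UUC-3 by 0.11 (interval -0.40 to 0.63). The median over the 15 was 0.11, the same as over all isodecoders.

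**Figure D3:**
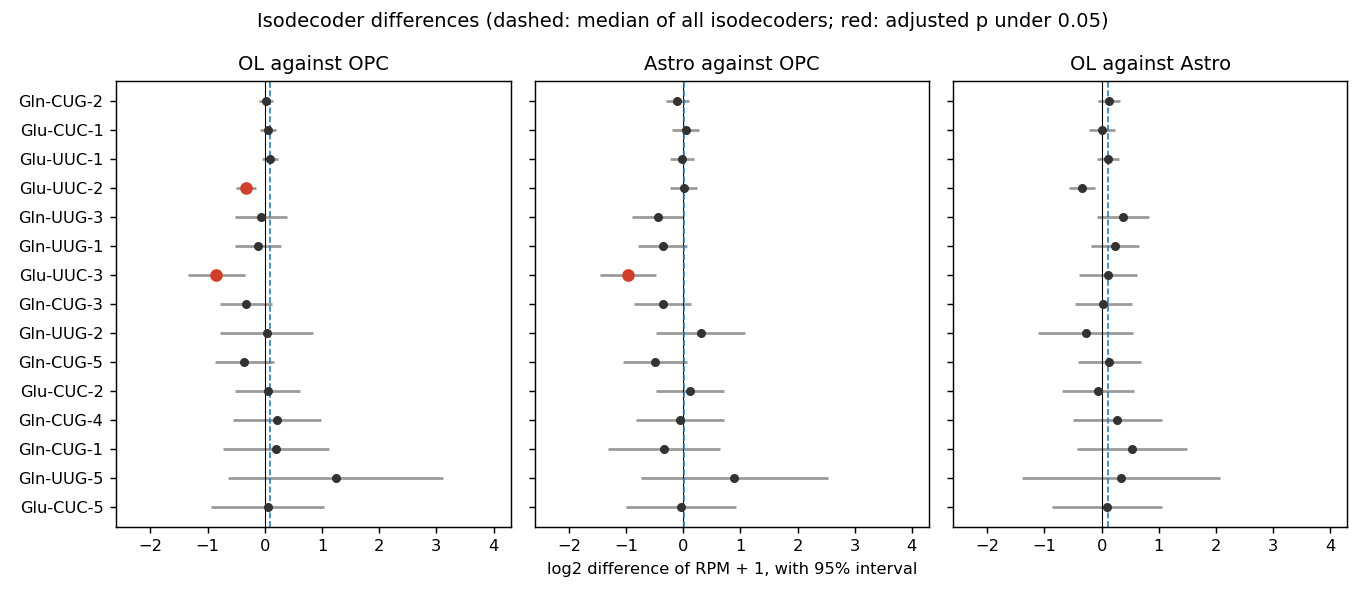
Difference of log2(RPM + 1) between groups (horizontal axis) for 15 isodecoders, ordered by level from top to bottom, with 95% intervals from limma; the dashed line is the median of all 192 isodecoders and red points have an adjusted p under 0.05. Glu-UUC-2 and Glu-UUC-3 are red in OLs against OPCs and Glu-UUC-3 in astrocytes against OPCs, and the intervals widen toward the scarce isodecoders.

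In the make-up of the Glu-UUC pool the OL libraries stood outside the range of the others, although the differences did not pass 0.01. Glu-UUC-1 made up 60.1, 58.7 and 59.9% of the pool in OPCs, 67.4 and 65.9% in OLs and 60.3 and 58.6% in astrocytes. Glu-UUC-2 made up 39.0, 40.2 and 38.7% in OPCs, 32.0 and 33.4% in OLs and 39.1 and 40.8% in astrocytes. For both, the OL libraries stood apart from all 5 others, and OPC and Astro libraries overlapped. These shares do not depend on the scaling of a library. They do depend on how reads were assigned among the isodecoders of the pool. Whether reads were lost or moved between Glu-UUC-1 and Glu-UUC-2 was not tested.

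In OLs against OPCs the Glu-UUC-2 share was lower by 0.27 on the log2 scale (SE 0.0380, 95% interval -0.37 to -0.16, limma adjusted p = 0.0268). The Glu-UUC-1 share was higher by 0.16 (SE 0.0300, interval 0.08 to 0.25, limma adjusted p = 0.0460). Leaving out 1 library took the adjusted p of the first to at most 0.155 and that of the second to at most 0.253, both without OL library 1. Neither passed 0.01, which 0 of the 15 shares did, against 2.17% of 184. An adjusted p under 0.05 was reached by 2 of 15, against 14.1%, and an unadjusted one by 3, against 31%. Libraries did not overlap for 6 of the 15 shares, against 55.4% of all. In OLs against astrocytes the Glu-UUC-2 share was lower by 0.29 (SE 0.0413, interval -0.40 to -0.18, limma adjusted p = 0.0153) and the Glu-UUC-1 share higher by 0.16 (SE 0.0314, interval 0.08 to 0.25, limma adjusted p = 0.0307). Again 0 of 15 passed 0.01, against 3.8% of 184, and 2 passed 0.05, against 14.1%, with 2 at an unadjusted p under 0.05, against 27.2%. Of the 15 shares 6 had libraries without overlap, against 58.7% of all. With a minimum mean of 100 RPM, which leaves fewer shares to adjust over, the Glu-UUC-2 share passed in this comparison, with an adjusted p of 0.00610 by limma. Without OL library 1 the adjusted p there was 0.0975 for the Glu-UUC-2 share and 0.187 for the Glu-UUC-1 share. Between astrocytes and OPCs the Glu-UUC-1 share differed by 0.00 (interval -0.09 to 0.09) and the Glu-UUC-2 share by 0.02 (interval -0.09 to 0.13). The 2 shares nearly add up to the whole pool, so that they mirror each other.

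**Figure D4:**
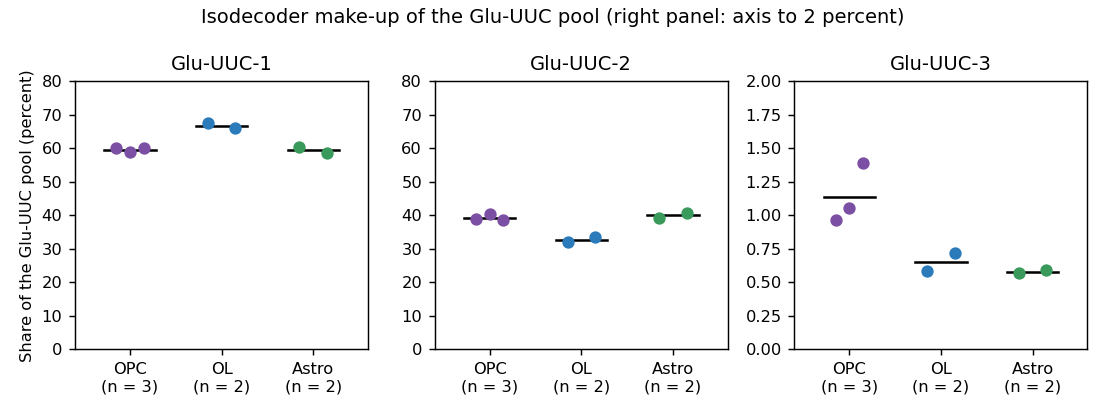
Share of each isodecoder in the Glu-UUC pool, in percent (vertical axis from 0, ending at 2% for Glu-UUC-3); points are libraries and black lines group means. The OL libraries are the highest for Glu-UUC-1, at 65.9 and 67.4%, and the lowest for Glu-UUC-2, at 32.0 and 33.4%.

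Glu-UUC-3 made up 0.962, 1.05 and 1.39% of the pool in OPCs, 0.586 and 0.719% in OLs and 0.568 and 0.589% in astrocytes. The OPC libraries were above all others. Its share was lower by 0.78 in OLs (interval -1.37 to -0.19, limma adjusted p = 0.0900) and by 0.95 in astrocytes (SE 0.185, interval -1.47 to -0.43, limma adjusted p = 0.0844) than in OPCs. For astrocytes and OPCs 0 of the 15 shares passed 0.01 or 0.05 by limma, against 0% of 184, and 2 had an unadjusted p under 0.05, against 23.4%. Of the 15 shares 3 had libraries without overlap, against 43.5% of all. OLs and astrocytes differed by 0.17 (interval -0.36 to 0.70).

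Within the Gln-UUG pool, Gln-UUG-2 made up 9.52, 7.72 and 11.3% in OPCs, 7.66 and 13.2% in OLs and 17.0 and 12.4% in astrocytes. Both Astro shares were above all OPC shares. The share was higher in astrocytes than in OPCs by 0.62 (SE 0.233, 95% interval -0.04 to 1.28, limma adjusted p = 0.228). Gln-UUG-3 made up 56.6, 55.6 and 56.1% in OPCs, 58.7 and 53.6% in OLs and 51.0 and 52.4% in astrocytes. Its share was lower in astrocytes than in OPCs by 0.12 (interval -0.21 to -0.03, limma adjusted p = 0.141). Gln-UUG-1 varied between 31.4 and 36.3% with all groups overlapping.

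The level per gene joined in an isodecoder's name varied widely among these tRNAs. Gln-CUG-2, with 4 genes, came to 12542 RPM per gene, whereas Gln-CUG-3, with 3 genes, came to 59.1 RPM per gene. Glu-UUC-2, Glu-CUC-1 and Glu-UUC-1 lay close together, at 6083, 5178 and 4963 RPM per gene, and Glu-UUC-3, with 2 genes like Glu-UUC-2, came to 136 RPM per gene. Gln-UUG-1 came to 424 RPM and Gln-UUG-3 to 349 RPM per gene.

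Over the 15 isodecoders the median was 139 RPM per gene, beside 442 RPM per gene over all 192. The 8 isodecoders of 1 gene had a median of 16.5 RPM, beside 315 RPM over all 135 of 1 gene, and the 7 of more than 1 gene had a median of 12165 RPM, beside 5760.3 RPM over all 57. These are descriptions, since the isodecoders of a pool share its naming and its reference.

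**Figure D5:**
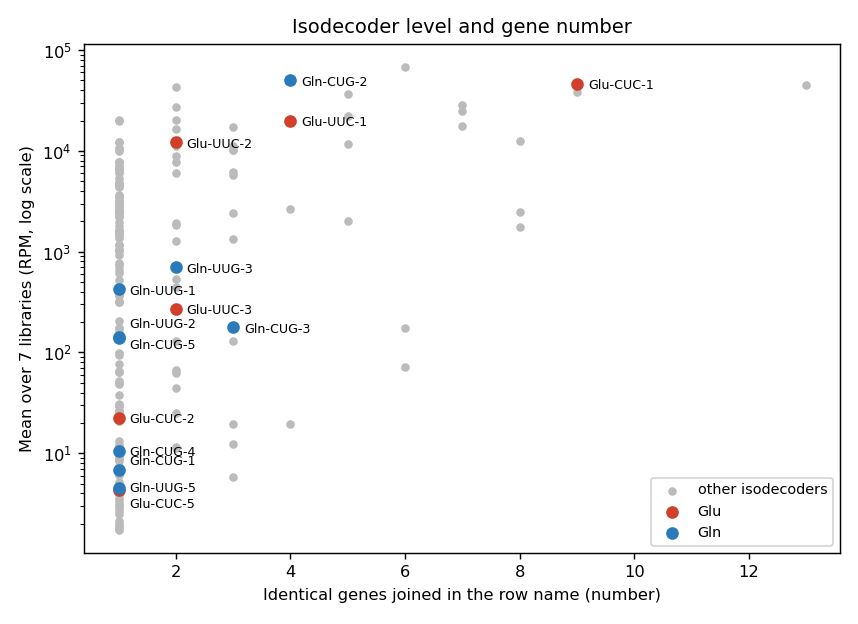
Mean RPM over the 7 libraries (vertical axis, log scale) against the number of identical genes joined in the isodecoder's name, for 192 isodecoders; red points are Glu, blue points Gln and grey points all others. Gln-CUG-2 and Gln-CUG-3, with 4 and 3 genes, lie at 50168 and 177 RPM.

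In the RefSeq annotation of GRCm38, the assembly also called mm10, 36 genes carry these anticodons: 8 for Glu-UUC, 12 for Glu-CUC, 6 for Gln-UUG and 10 for Gln-CUG. The names in the table joined 8, 11, 6 and 10. RefSeq names could not be matched to isodecoder numbers, so no gene is assigned to an isodecoder here. The 36 genes lie on 11 chromosomes, with 9 on chromosome 13, 8 on chromosome 3 and 5 on chromosome 1. By GENCODE, 27 are intergenic, 8 lie in introns and 1 overlaps an exon, that of the long noncoding RNA gene Gm11527 (the Gln-UUG gene n-TQttg6, chr11:95859172-95859243).

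Introns were most frequent for Glu-UUC, with 4 of its 8 genes, beside 3 of 12 for Glu-CUC, 1 of 6 for Gln-UUG and 0 of 10 for Gln-CUG. The Glu-UUC genes in introns are n-TEttc4 in Elf1 (chr14:79481668-79481739), n-TEttc5 in Btn1a1 (chr13:23463535-23463606), n-TEttc3 in the long noncoding RNA gene Platr30 (chr3:96346675-96346746) and n-TEttc2 in the long noncoding RNA gene Gm17575 (chr3:96387405-96387476). Those between genes are n-TEttc1 (chr1:34434812-34434883), n-TEttc7 (chr7:58399315-58399386), n-TEttc8 (chr9:104408667-104408738) and n-TEttc6 (chr14:76152774-76152845). Host mRNAs were not measured.

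The anticodons whose levels went most alike with each pool over the 7 libraries were named from 43 others with a mean of at least 100 RPM, by Pearson's r of log2(RPM + 1). Glu-CUC went with Arg-CCU (r = 0.899) and Arg-CCG (r = 0.847). Gln-UUG went with Arg-UCG (r = 0.884) and Thr-CGU (r = 0.883), and Gln-CUG with Tyr-GUA (r = 0.849) and Ser-UGA (r = 0.836). For Glu-UUC the closest were Ala-AGC (r = 0.641) and Arg-CCU (r = 0.308). All points share their libraries and one RPM total, and 7 points that fall into 3 groups give only a description.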

How the data were processed

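QuantM-seq libraries of mouse OPCs (n = 3), OLs (n = 2) and astrocytes (n = 2), called biological replicates by the study, were grouped and numbered from the labels. The authors trimmed reads with cutadapt and mapped them with Bowtie2 to mature tRNAs, the high-confidence mm10 set of GtRNAdb in which genes of one sequence are merged. They counted by strand with featureCounts at a minimum mapping quality of 10. The deposited values are RPM, scaled by the authors to the reads assigned to cytosolic and mitochondrial tRNAs, for cytosolic isodecoders and, summed, for anticodons. Deposited tables from DESeq2 hold the authors' own comparison of OPCs with OLs (mean, log2 fold change, error, statistic and p-values) and were not used. Mitochondrial Glu and Gln tRNAs were not analysed here.

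Read totals were found from the step between RPM values: with them, 100% of the values above 0 in each library came within 0.05 of a whole read. The values were tested as the RPM deposited, and no count test was run on these reads. log2(RPM + 1) was tested in R 4.3.3 with limma 3.58.1 (lmFit, eBayes), two-sided. A variance trend was used for anticodons and isodecoders, and none for shares and amino acid sums. Fold changes on this scale understate changes of low tRNAs. The Benjamini-Hochberg adjustment ran over all 52 anticodons, over 192 isodecoders (mean of 1 RPM or more) or over 39 anticodon shares. For the other fits it ran over 184 isodecoder shares or over 23 amino acid sums. The threshold was 0.01, which the study used with another test, DESeq2, so the numbers called are not comparable. Fits against OPCs held the libraries of the pair of groups compared, and the fit of OLs against astrocytes held all 7. All 4 anticodons were described in full, with isodecoders of at least 5% of their pool or among the 2 largest differences per direction and comparison. The members and lists were chosen with earlier results of these data known. The fits were also run on simulated data with independent normal noise, which leaves out the shared RPM total and the shared origin of cultures. Alternatives were pseudocounts of 0.1 and 10, a threshold of 0.05, other minimum means (none, 1 or 100 RPM), 2 other scalings, the variance trend, the libraries in the fit, a replicate term, and leaving out each library.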

Additional observations from a re-analysis of the deposited data

How the results depend on the processing

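The groups hold 2 or 3 libraries and the scarce isodecoders rest on few reads, so their intervals are wide. Counts of glutamate and glutamine tRNAs past the threshold were 0 in the alternatives run, except as follows and with a replicate block. At a threshold of 0.05, OLs against OPCs gave 2 isodecoders, beside 35 of all 192, and 2 isodecoder shares, beside 26 of all 184. Astrocytes against OPCs gave 1 isodecoder, beside 14 of all 192, and OLs against astrocytes 2 isodecoder shares, beside 26 of all 184. Under median-of-ratios scaling 1 isodecoder, Glu-UUC-3, passed in each comparison with OPCs, beside 22 of all 192 in OLs and 17 in astrocytes. With a minimum mean of 100 RPM 1 isodecoder share, that of Glu-UUC-2, passed in OLs against astrocytes, beside 15 of all 110. Leaving out 1 library gave 0 to 1 isodecoders in each comparison with OPCs, the 1 being found without OPC library 3: Glu-UUC-2 in OLs and Glu-UUC-3 in astrocytes. Without OPC library 3, 29 of all 192 isodecoders passed in OLs against OPCs and 17 in astrocytes against OPCs. The cause of these changes was not tested.

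Signs turned for small differences, given here on the log2 scale. Under median-of-ratios scaling OLs against OPCs came to -0.072 for Gln-CUG, -0.044 for Glu-CUC and -0.092 for the glutamate sum, astrocytes against OPCs to 0.00044 for Glu-UUC and 0.016 for Glu-UUC-1, and OLs against astrocytes to -0.10 for Glu-CUC. Rescaled to the listed tRNAs, OLs against OPCs came to -0.015 for Gln-CUG and -0.035 for the glutamate sum, astrocytes against OPCs to 0.010 for Glu-UUC and 0.0075 for Glu-UUC-1, and OLs against astrocytes to -0.055 for Glu-CUC. Leaving out each library in turn, the difference of OLs against OPCs ran from -0.16 to 0.10 for Gln-UUG, from -0.20 to 0.093 for the Gln-UUG share and from -0.017 to 0.025 for the glutamate sum. For astrocytes against OPCs it ran from -0.067 to 0.039 for Glu-UUC, -0.085 to 0.17 for Glu-CUC, -0.073 to 0.093 for Glu-UUC-2, -0.021 to 0.64 for Gln-UUG-2, -0.049 to 0.015 for Glu-UUC-1, -0.080 to 0.011 for the Glu-UUC share, -0.024 to 0.018 for the Glu-UUC-1 share and -0.0066 to 0.055 for the Glu-UUC-2 share. For OLs against astrocytes it ran from -0.12 to 0.14 for Glu-CUC, -0.61 to 0.052 for Gln-UUG-2, -0.067 to 0.29 for Glu-UUC-3 and -0.082 to 0.0094 for the Glu-UUC share. The other glutamate and glutamine differences named kept their sign under these alternatives.

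OLs were derived from some of the sequenced OPC cultures, but the labels do not tie their numbers to those of the OPCs, so pairs could not be assigned. Deviations of same-numbered anticodon values correlated at 0.104 and -0.361 between OPCs and OLs, at -0.070 and 0.562 between OPCs and astrocytes and at -0.518 between OLs and astrocytes. With 2 libraries in a group such deviations mirror each other, so these values cannot settle the pairing. With a replicate block, which leaves OPC library 3 without a partner, 2 isodecoders passed in OLs against OPCs, beside 45 of all 192. These were Glu-UUC-2 at -0.34 (limma adjusted p = 0.00124) and Gln-UUG-5 at 1.64 (limma adjusted p = 0.000161), the latter on 0 to 17 reads per library. In astrocytes against OPCs 1 passed, Glu-UUC-3 at -0.81 (limma adjusted p = 0.00148), beside 24 of all 192. The block takes equal numbers as pairs, which the labels do not give, and leaves few libraries to estimate the spread from. Its p-values are therefore uncertain. With the block OLs against OPCs came to 0.10 for Gln-UUG and 0.093 for the Gln-UUG share, and astrocytes against OPCs to -0.00015 for Glu-UUC-2 and 0.0015 for the Glu-UUC-1 share. With the numbers crossed between OLs and astrocytes, an alternative chosen after seeing the data, 0 anticodons and 0 isodecoders of the set passed by limma, beside 0 and 10 of all.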
